A study of Homo sapiens with 20 samples.

Results

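The Toll-like receptor genes TLR1 to TLR10 were followed in the human neuroblastoma line NGP, with and without the small molecule nutlin-3. The members were taken by gene symbol, as the 10 genes of GENCODE release 44 named TLR1 to TLR10, and not by their expression. Earlier results of these data were known when the family was chosen. All 10 could be tested, among 27697 mRNA and lncRNA genes that had any count under both conditions. In the series 10 cultures received a racemic mixture of nutlin-3 at 8 µM (nutlin) and 10 received ethanol alone (vehicle). Nutlin-3 binds MDM2 and blocks its hold on p53. The study describes the samples as biological replicates of a single cell line grown in 6-well flasks, and the length of the treatment is not given in the sources used here. Poly(A) RNA was made into stranded libraries and sequenced as read pairs of 75 bases.

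Toll-like receptors are membrane proteins of innate immunity that sense microbial molecules through a horseshoe of leucine-rich repeats. TLR1, TLR2, TLR4, TLR5, TLR6 and TLR10 work mainly at the cell surface, on lipids and proteins, whereas TLR3, TLR7, TLR8 and TLR9 sense nucleic acids in endosomes. Their cytoplasmic TIR domains recruit the adaptors MyD88 or TRIF, which lead through IRAK and TAK1 kinases to NF-kB and interferon regulatory factors. They are best known from myeloid and B cells.

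Libraries held between 14455477 and 19532971 estimated read pairs. MDM2, a known target of p53, checked the treatment: its level was 245 ± 33.2 CPM (counts scaled to library size, with TMM normalization; mean ± SD, n = 10) with vehicle and 5560 ± 382 CPM with nutlin. Its log2 fold change of nutlin over vehicle (LFC) was 4.51 (SE 0.07), and every nutlin sample lay above every vehicle sample. At 5% FDR 16275 genes (58.8%) were significantly differentially expressed (SDE), 32.3% of all genes higher and 26.5% lower with nutlin, by edgeR's quasi-likelihood test with Benjamini-Hochberg adjustment. The median LFC over all genes tested was 0.19. In bulk RNA, fewer cells of a type and less RNA per cell cannot be told apart. All 12 markers of sympathetic neuroblasts, the cell type that neuroblastoma resembles, had a mean of at least 1 CPM.

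The whole family took a handful of read pairs per library. Summed over the 10 genes, vehicle samples held 24 to 36 read pairs (median 31) and nutlin samples 26 to 55 (median 38). In all, 303 read pairs with vehicle (0.000178% of counts) and 382 with nutlin (0.00025%) were assigned to the family. The mean level of each gene over the 20 samples was below 1 CPM, between 0.0061 and 0.585 CPM. A level of 3 read pairs corresponded to 0.173 CPM (vehicle replicate 8) to 0.244 CPM (vehicle replicate 11), depending on the library. Most values below thus rest on very few molecules, and intervals or floors from counts cover counting error only.

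Of the 10 genes 3 were SDE, TLR4 and TLR9 higher and TLR1 lower with nutlin. That share is below the 58.8% of all genes that were SDE and near the 32.9% of the 12529 genes with a mean below 1 CPM (29.1% higher and 3.71% lower), and is no result about the family. The same 3 genes had an unadjusted p under 0.05. In none of the 10 genes were the groups fully separated, against 12.2% of all genes with every nutlin sample above and 16.6% with every nutlin sample below every vehicle sample (4.12% and 0.263% of the genes below 1 CPM).

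**Figure D1:**
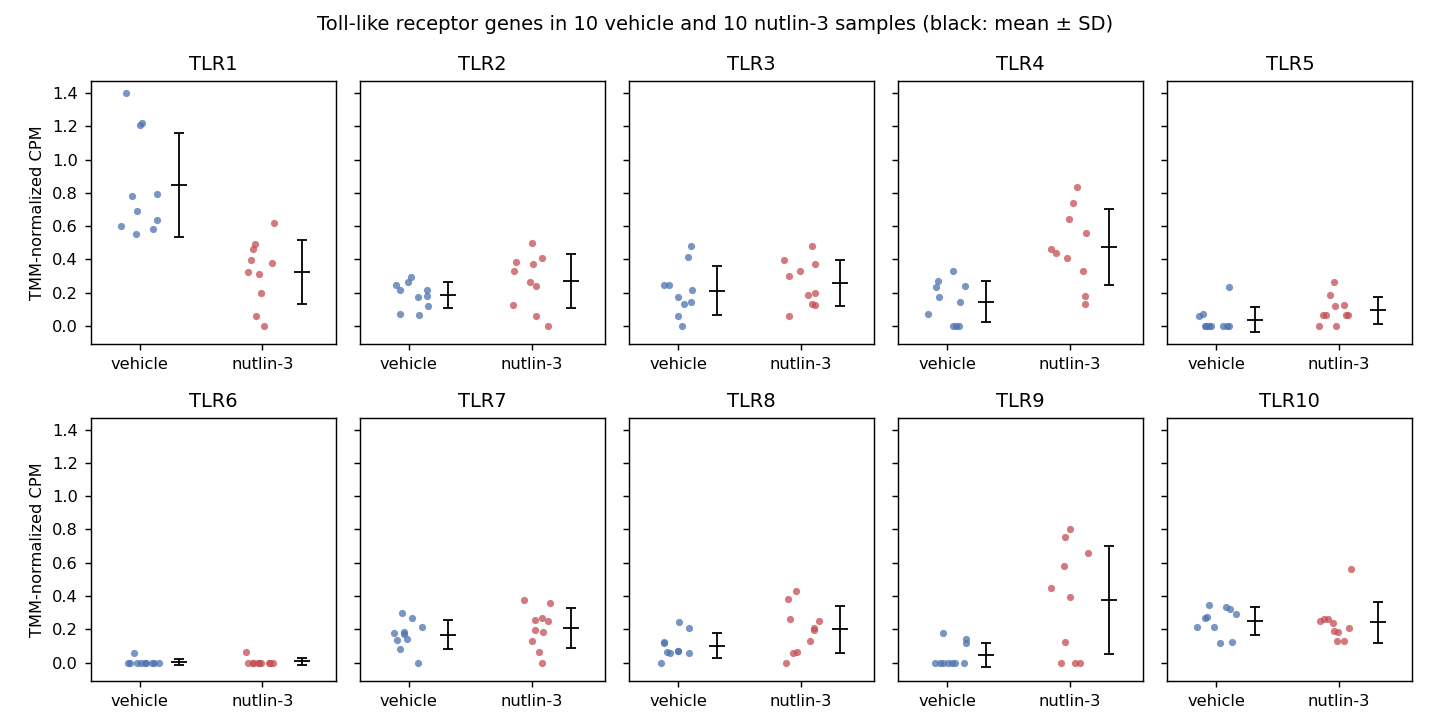
Level of each Toll-like receptor gene in TMM-normalised CPM (y axis) in the 10 vehicle and 10 nutlin samples, with 1 point per sample and bars for mean ± SD. TLR1 is lower and TLR4 and TLR9 are higher with nutlin, with overlapping groups in each, and the other 7 genes were not SDE.

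Levels between genes were compared per length, in TPM (counts scaled by transcript length and library size). With vehicle, TLR1 was highest at 0.432 ± 0.271 TPM (SD, n = 10), followed by TLR5 at 0.145 ± 0.294, TLR10 at 0.077 ± 0.0294 and TLR3 at 0.063 ± 0.0409 TPM. TLR4, TLR2, TLR7, TLR8, TLR9 and TLR6 followed in that order, from 0.0543 down to 0.00232 TPM. No neighbours in this order differed by more than the SD of their difference over samples. With nutlin the order was TLR1 (0.238 TPM), TLR5 (0.236), TLR4 (0.177), TLR10 (0.121), TLR9 (0.105), TLR7 (0.0841), TLR3 (0.0718), TLR2 (0.0693), TLR8 (0.0506) and TLR6 (0.00253). There only TLR8 and TLR6 were apart by more than that SD (0.048 TPM against 0.0382). Of the TPM of the family, TLR1 made up 48.2% with vehicle and 20.6% with nutlin, TLR4 6.05% and 15.3%, and TLR9 1.45% and 9.11%. The place of TLR5 rests on short transcripts, as described with that gene. TLR7 was at 0.469 TPM in nutlin replicate 3, with 1.0 read pair on ENST00000484204, of 299 bases, and the next nutlin sample was at 0.0854 TPM. TLR10 also had read pairs on short transcripts with nutlin only, 2.3 on ENST00000507953 (596 bases) and 1.6 on ENST00000502321 (676 bases). In CPM, TLR10 was at 0.251 with vehicle and 0.242 with nutlin.

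TLR1, which pairs with TLR2 to sense bacterial triacyl lipopeptides, was the most abundant member in vehicle samples. It lies on chr4:38790677-38856817 (GRCh38, minus strand, ENSG00000174125.8). Vehicle samples held 8 to 21 read pairs (median 11.5) and nutlin samples 0 to 9 (median 5.5). Of the vehicle samples 7 were above the highest nutlin sample, and 9 nutlin samples were below the lowest vehicle sample. TLR1 fell from 0.847 ± 0.309 to 0.323 ± 0.192 CPM (n = 10 each, LFC -1.37, SE 0.31, adjusted p = 0.000384). With an offset for the effective length of the gene's transcripts the LFC was -0.95 and the call was lost (adjusted p = 0.0574, within a range of 7.52e-05 to 0.0574 over 8 alternatives).

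The read pairs of TLR1 were assigned to different transcripts in different samples. ENST00000308979, of 2849 bases, had a value above 0 in 4 vehicle samples and in 0 nutlin samples, with 50.1 and 0.0 read pairs in all. ENST00000502213, of 2779 bases, had a value above 0 in the other 6 vehicle samples and in 9 nutlin samples, with 68.3 and 40.3 read pairs. No sample had both. All 31-base words of ENST00000502213 also occur in ENST00000308979, and 97.4% of those of the latter occur in the former, so the reads barely distinguish them and the split is an estimate.

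**Figure D2:**
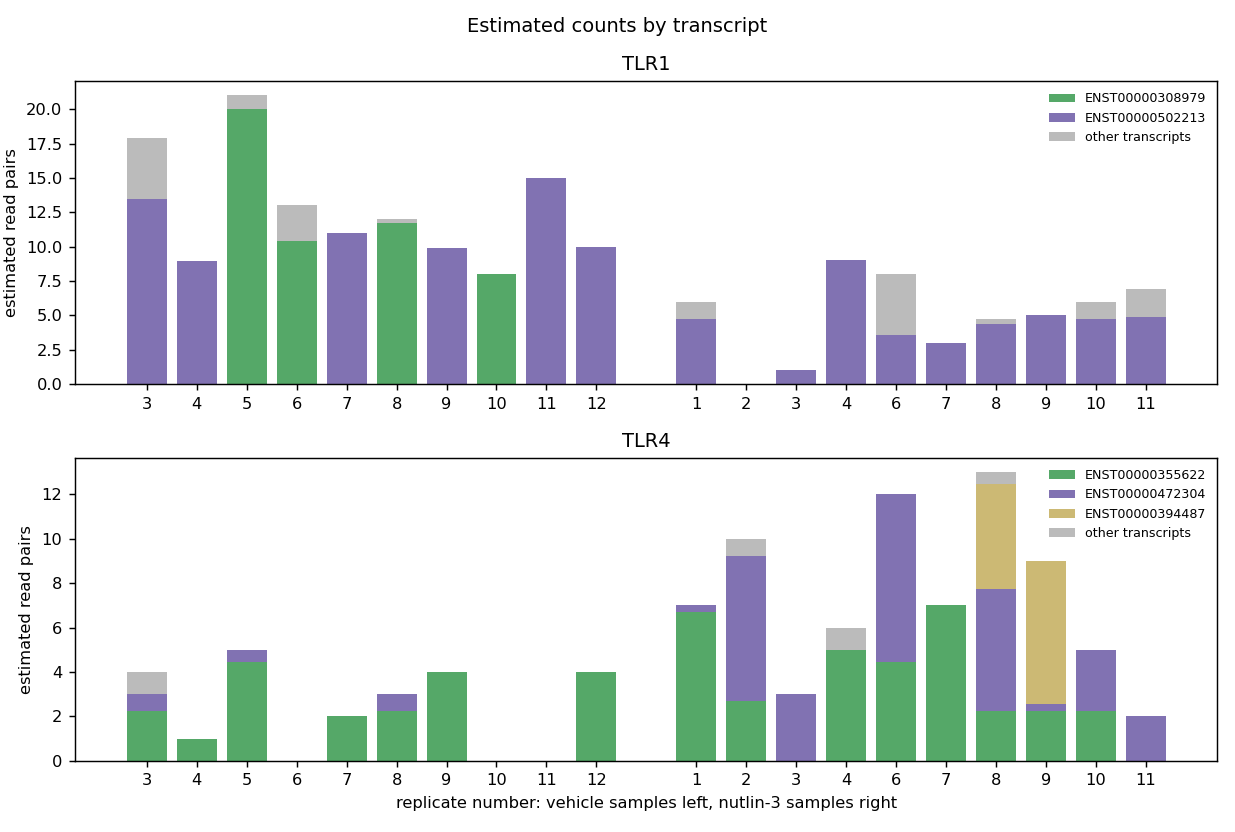
Estimated read pairs (y axis) by transcript of TLR1 (upper panel) and TLR4 (lower panel), with 1 stacked bar per sample, named by its replicate number (x axis, vehicle left, nutlin right). No sample shows both of the near-identical TLR1 transcripts, nutlin replicate 2 shows neither, and ENST00000308979 is at 0 in all nutlin samples, and read pairs on the TLR4 transcript ENST00000472304 number 2.1 in all with vehicle and 28.0 with nutlin.

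TLR6 and TLR10 are the closest relatives of TLR1 and lie beside it. TLR6, which pairs with TLR2 for diacyl lipopeptides, is on chr4:38822897-38856817 and overlaps TLR1 on the same strand. It had 1 read pair in all with vehicle and 1 with nutlin, in 1 sample of each group, so no fold change is given. Of the 31-base words of the TLR1 transcript ENST00000502213, 14.1% also occur in TLR6 and 0.255% in TLR10, and assignment among these genes is uncertain to that extent. TLR10, a receptor with no settled ligand, is on chr4:38772238-38782990 (minus strand). It held 2 to 6 read pairs (median 4) with vehicle and 2 to 9 (median 3.5) with nutlin, which overlapped throughout (LFC -0.04, SE 0.30, adjusted p = 0.944). With the counts of TLR1, TLR6 and TLR10 summed into 1 feature, the LFC was -0.93 (adjusted p = 0.00107).

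TLR2, the shared partner in both lipopeptide receptors, lies on chr4:153684070-153706260. It had 1 to 5 read pairs (median 3) with vehicle and 0 to 8 (median 4.5) with nutlin. The groups overlapped and TLR2 was not SDE (LFC 0.53, SE 0.39, adjusted p = 0.258).

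TLR4, the receptor for bacterial lipopolysaccharide together with MD-2 (LY96) and CD14, lies on chr9:117704175-117724735 (plus strand). In GENCODE 44 it lies within another mRNA gene on the same strand, ENSG00000285082 (chr9:117704157-118083691). That gene had no counts in these data, and whether reads from it were assigned to TLR4 was not tested. Vehicle samples held 0 to 5 read pairs (median 2.5), with 3 of them at 0, and nutlin samples 2 to 13 (median 7). Of the nutlin samples 7 were above the highest vehicle sample. TLR4 rose from 0.146 ± 0.123 to 0.473 ± 0.228 CPM (n = 10 each, LFC 1.61, SE 0.42, adjusted p = 0.00154). The transcripts carried the difference unequally. ENST00000355622 had 19.9 read pairs in all with vehicle and 32.5 with nutlin, ENST00000472304 had 2.1 and 28.0, and ENST00000394487 had 0.0 and 11.2. ENST00000472304 had at least 0.5 read pairs in 3 vehicle and 6 nutlin samples. Of its 31-base words 91.4% also occur in ENST00000355622 as annotated in GENCODE 44, so this split is also an estimate.

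TLR5, the flagellin receptor, lies on chr1:223109404-223143248 (minus strand). Of the vehicle samples 7 had no read pair and the highest had 4, and nutlin samples had 0 to 4 (median 1). TLR5 was not SDE (LFC 1.14, SE 0.69, adjusted p = 0.16). Without vehicle replicate 9, which held 4 of the 6 vehicle read pairs, it was SDE (LFC 2.18, adjusted p = 0.0103). None of the 6.3 estimated read pairs of the vehicle group, and 33.0% of the 14.5 of the nutlin group, fell on transcripts with a coding sequence. Most TLR5 read pairs were on ENST00000465726, of 435 bases (5.4 with vehicle and 8.0 with nutlin), and a short length gives a high TPM for few reads.

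TLR9, the endosomal receptor for unmethylated CpG DNA, had the largest LFC among the 10 genes. It lies on chr3:52221080-52225645 (minus strand). Vehicle samples held 0 to 3 read pairs (median 0), with 7 at 0, and nutlin samples 0 to 13 (median 6.5), with 3 at 0. TLR9 rose from 0.0438 ± 0.0716 to 0.376 ± 0.323 CPM (n = 10 each, LFC 2.83, SE 0.72, adjusted p = 0.00123), and 6 nutlin samples were above the highest vehicle sample. Its single large coding exon is shared with another gene on the same strand, ENSG00000173366 (chr3:52221081-52231190). The first 4 of the 5 exons of that gene's transcript ENST00000494383 lie within TWF2, an actin-binding protein gene, and the last is the TLR9 exon (chr3:52221081-52224312). The sequences across the 2 junctions are shown because, in GENCODE 44, reads within the shared exon fit both genes and only those that reach past it tell them apart. Capitals mark the first bases of the shared exon, read 5′ to 3′ from GRCh38 with the exons of GENCODE 44.
TLR9 exon 1 to exon 2: ctgccccccagcatgGGTTTCTGCCGCAGC
ENSG00000173366 exon 4 to exon 5: gagatcgccaagaaaGGTTTCTGCCGCAGC

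Of the 31-base words of the TLR9 transcript in GENCODE 44, 96.4% also occur in ENST00000494383. That sequence has 3352 bases, against 3870 as quantified by the authors. The division of reads between the genes was close to all or nothing in several libraries. Nutlin replicate 11 had 0 read pairs on TLR9 and 23.6 on ENSG00000173366, and nutlin replicate 9 had 12.8 and 5.8. Each of the 3 nutlin samples without TLR9 reads had reads on the overlapping gene. ENSG00000173366 itself rose, from 0.188 ± 0.125 to 0.613 ± 0.365 CPM (n = 10 each, LFC 1.64, SE 0.38, adjusted p = 0.000378).

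Summed over both genes, a value added after seeing the data, vehicle samples held 0.0 to 6.3 read pairs (median 4.2) and nutlin samples 7.6 to 23.6 (median 15.4). Every nutlin sample was then above every vehicle sample. The summed level rose from 0.237 ± 0.114 to 0.983 ± 0.362 CPM (n = 10 each, LFC 2.03, SE 0.29, adjusted p = 5.96e-07). TWF2, within whose span the first 4 exons of ENST00000494383 lie, had an LFC of -0.17 (adjusted p = 0.00782). Which of the overlapping genes made the shared exon was not tested.

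**Figure D3:**
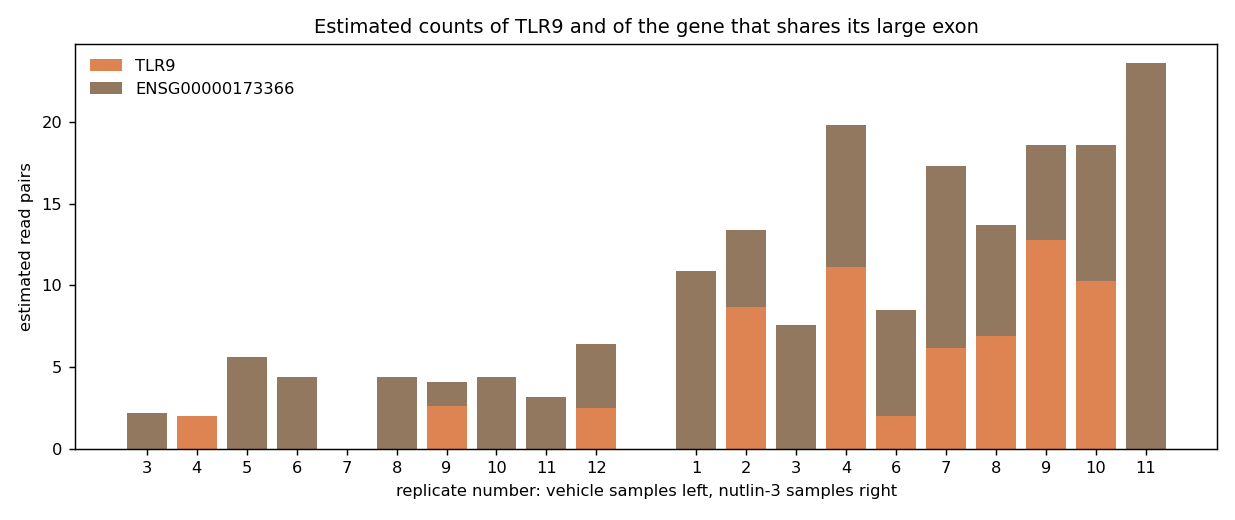
Estimated read pairs in each sample (1 stacked bar per sample named by its replicate number, vehicle left, nutlin right) on TLR9 and on ENSG00000173366, which share an exon of 3232 bases. Which gene received the reads varied among samples, whereas the sum was 0.0 to 6.3 with vehicle and 7.6 to 23.6 with nutlin.

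The other endosomal receptors were not SDE. TLR3, which senses double-stranded RNA, lies on chr4:186068911-186088073 and had 0 to 8 read pairs (median 3) with vehicle and 1 to 7 (median 4) with nutlin (LFC 0.28, SE 0.40, adjusted p = 0.584). TLR7 and TLR8, neighbours on the X chromosome that sense single-stranded RNA, lie on chrX:12867072-12890361 and chrX:12906620-12923169. TLR7 had 0 to 5 read pairs (median 3) with vehicle and 0 to 6 (median 3.5) with nutlin (LFC 0.29, SE 0.41, adjusted p = 0.566). For TLR8 the ranges were 0 to 3 (median 1) and 0 to 7 (median 3), with an LFC of 0.95 (SE 0.48, adjusted p = 0.0943). Without nutlin replicate 6 TLR8 was SDE (LFC 1.11, adjusted p = 0.0332). In all 3 genes the groups overlapped.

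Promoters, here the 250 bases before the RefSeq start of a gene (GRCh38.p14), were on hand for 7 of the 10 genes. The GC box GGGCGG was in the promoters of TLR2, TLR3, TLR4 and TLR5, against 42.6% of 35116 promoters of all genes, searching both strands throughout. The TATA box TATAAA was in that of TLR9 alone, against 10.7%. None of the 7 held the interferon-stimulated response element GAAANNGAAA, a decamer of the p53 consensus or the NF-kB consensus, found in 3.02%, 5.57% and 9.96% of all promoters. For TLR4 the window (chr9:117704153-117704402) lies almost wholly within the gene as GENCODE 44 gives it, since ENST00000472304 and ENST00000394487 start at 117704175 and 117704192, ahead of ENST00000355622 at 117704403. The TLR9 transcript in the files is longer than in GENCODE 44 (3870 against 3352 bases), so its start may also differ from the one used here. These matches describe letters in the window only.

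The other genes of the pathway were read from 8 lists of 97 genes, of which 86 were tested. Of these 53 (61.6%) were SDE, 28 higher and 25 lower with nutlin, with a median LFC of 0.09, against 58.8% and 0.19 over all genes. All 97 are mRNA genes, and among mRNA genes 70.9% were SDE, so the share was slightly above the first background and below the second. For the counts per list below, 32.4% of all mRNA genes tested were higher and 38.5% lower with nutlin. Groups did not overlap in 12.2% of all genes with nutlin above and in 16.6% with nutlin below.

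Among co-receptors and ligand-handling proteins, 2 of 5 tested were SDE, both higher. CD36, a scavenger receptor that assists the TLR2 pairs, rose from 0.593 ± 0.184 to 1.68 ± 0.453 CPM (LFC 1.49, adjusted p = 1.07e-07). LBP, which carries lipopolysaccharide to CD14, had 14 read pairs in all with vehicle and 48 with nutlin (LFC 1.65, adjusted p = 0.00163); it was named after its values were seen. The partners of TLR4 were not SDE: LY96 had 19 and 9 read pairs in all (LFC -1.0, SE 0.61, adjusted p = 0.167) and CD14 97 and 52 (LFC -0.92, SE 0.44, adjusted p = 0.0711).

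Of the 10 folding and trafficking genes, 6 fell and 3 rose. HSP90B1 (gp96), the chaperone that most Toll-like receptors need for folding, fell from 382 ± 15.5 to 170 ± 6.94 CPM (LFC -1.17, SE 0.03, adjusted p = 1.59e-23), with no overlap between groups. Its co-chaperone CNPY3 fell from 49.9 ± 3.99 to 28.6 ± 2.18 CPM (LFC -0.80, adjusted p = 7.34e-15), and the related CNPY4 had an LFC of -0.69 (adjusted p = 5.36e-11). The 4 endosomal proteases of the list, which can cut the receptors, went both ways. CTSL rose from 17.8 ± 2.1 to 32.9 ± 2.4 CPM (LFC 0.88, adjusted p = 2.87e-14), again without overlap, and CTSS had an LFC of 0.54 (adjusted p = 0.00786). CTSB fell from 142 ± 15.6 to 88.7 ± 7.75 CPM (LFC -0.68, adjusted p = 7.04e-12) and LGMN had an LFC of -0.65 (adjusted p = 3.74e-13), both without overlap and both named after their values were seen. UNC93B1, which escorts the nucleic acid sensors to endosomes, rose from 0.609 ± 0.245 to 1.05 ± 0.461 CPM (LFC 0.77, SE 0.25, adjusted p = 0.00931).

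Of the 6 adaptors only MYD88, which serves nearly all members, was SDE. It had 0 to 4 read pairs (median 1) with vehicle and 0 to 8 (median 5) with nutlin, in overlapping groups (LFC 1.96, SE 0.52, adjusted p = 0.00157). TICAM1, the TRIF adaptor of TLR3 and TLR4, had an LFC of 0.17 (SE 0.08, adjusted p = 0.0503) and TIRAP, the sorting adaptor of TLR2 and TLR4, of -0.06 (SE 0.12, adjusted p = 0.692). MYD88 was therefore, like the receptors, measured on a few read pairs, whereas TICAM1 held 89 to 166 read pairs in a sample.

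Of 20 kinases and ubiquitin enzymes 11 fell and 4 rose. IRAK1, the kinase that MyD88 recruits, fell with an LFC of -0.43 (adjusted p = 9.5e-12) and MAP3K7 (TAK1) with -0.42 (adjusted p = 2.13e-09). UBE2N, the enzyme that builds K63 ubiquitin chains, had an LFC of -0.79 (adjusted p = 2.39e-15). The TAK1-binding proteins TAB2 and TAB3 rose, with LFCs of 1.25 (adjusted p = 1.2e-07) and 0.66 (adjusted p = 6.34e-11). IRAK2 also rose (LFC 0.60, adjusted p = 0.00823).

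Among 8 transcription factors 3 rose and 2 fell. IRF7, which drives interferon genes downstream of TLR7 and TLR9, had an LFC of 0.69 (adjusted p = 0.000672). The NF-kB subunit RELA had an LFC of 0.16 (adjusted p = 0.00408), below the median of all genes. IRF3, the factor downstream of TRIF, fell from 50.8 to 34.5 CPM (LFC -0.56, adjusted p = 4.5e-13), and NFKB2 had an LFC of -0.62 (adjusted p = 0.00282).

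Of 14 negative regulators 6 rose and 3 fell. ATF3, a transcription factor that restrains cytokine genes, showed the largest difference of the rule-named pathway genes, from 2.71 ± 0.923 to 80.9 ± 9.41 CPM (LFC 4.90, SE 0.12, adjusted p = 2.36e-24). The inhibitor NFKBIE rose with an LFC of 1.06 (adjusted p = 4.91e-16) and the phosphatase DUSP1 with 0.75 (adjusted p = 1.3e-13). OTUD7B, NFKBIB and TNIP2 fell, with LFCs of -0.32, -0.31 and -0.25. NFKBIA, the main NF-kB inhibitor and itself an NF-kB target, was at 35.0 CPM with vehicle and 34.9 with nutlin (SE of the LFC 0.05, adjusted p = 0.978). TNFAIP3 (A20) had 11 and 30 read pairs in all (LFC 1.32, SE 0.71, adjusted p = 0.114).

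**Figure D4:**
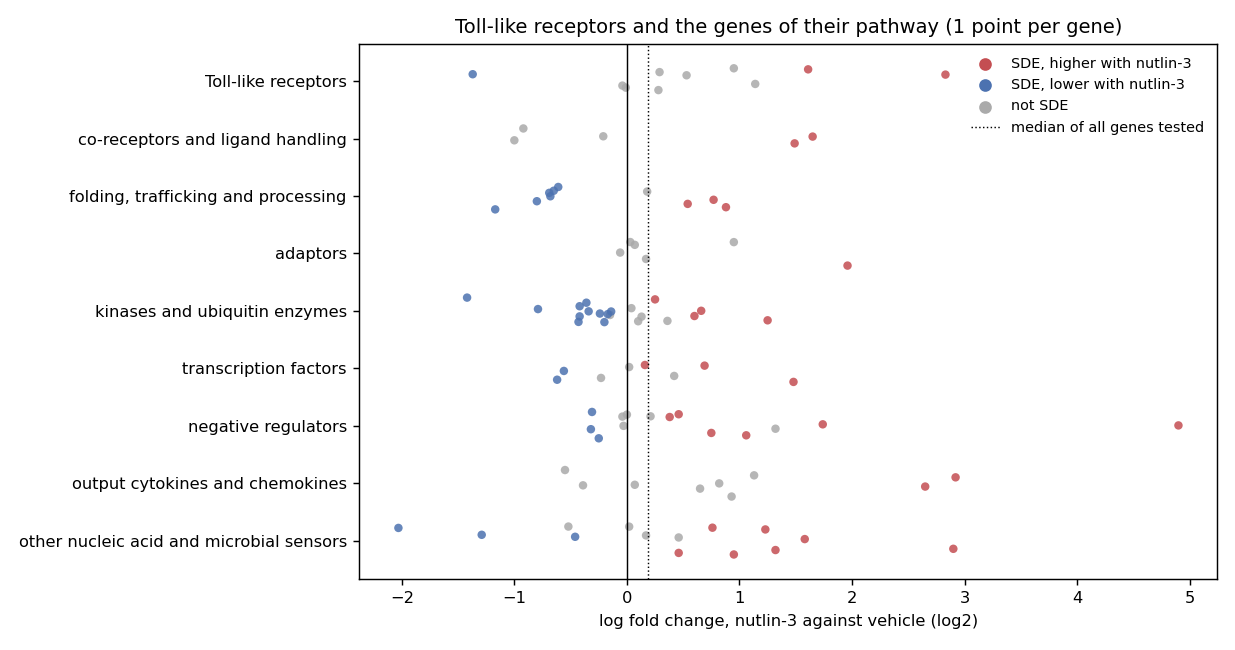
LFC of nutlin over vehicle (x axis, log2) for each tested Toll-like receptor and pathway gene (1 point each, 1 row per list), red for SDE higher, blue for SDE lower and grey for not SDE, with a dotted line at the median of all genes tested (0.19). Most lists hold SDE genes of both signs, and the point farthest right is ATF3 at 4.90.

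Of 18 output genes, mostly cytokines and chemokines, 9 were tested and none reached a mean of 1 CPM. The SDE ones were the cytokine IL1B and the adhesion molecule ICAM1, both named after their values were seen. IL1B had 3 read pairs in all with vehicle and 26 with nutlin (LFC 2.65, adjusted p = 0.000274), and ICAM1 had 2 and 24 (LFC 2.92, adjusted p = 0.000604). TNF had no read pair in any vehicle sample and so was not tested. It had 1 to 9 read pairs (median 4.5) in nutlin samples, at least 14.9-fold higher against a floor of 3 counts over the vehicle group. IL6, CXCL1 and CCL3 were at 0 in all libraries. These cytokines, too, were named after their values were seen.

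Other sensors of microbes and nucleic acids gave 7 higher and 3 lower of 14 tested. The inflammasome sensors NLRP1 (LFC 1.58, adjusted p = 3.37e-09) and NLRC4 (LFC 0.76, adjusted p = 2.49e-05) and the DNA sensor IFI16 (LFC 0.95, adjusted p = 6.4e-09) rose. NOD1, a sensor of bacterial cell wall fragments, fell from 9.54 to 3.9 CPM (LFC -1.29, adjusted p = 2.28e-13), and the double-stranded RNA kinase EIF2AK2 had an LFC of -0.46 (adjusted p = 3.57e-10).

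Position was compared as well. The nearest tested mRNA genes on each side of the 10 members were 14 distinct genes outside the family, of which 10 fell, 2 rose and 2 were not SDE, against 70.9% SDE, 38.5% lower and 32.4% higher among all mRNA genes. The genes that rose were FAM149A beside TLR3 (LFC 0.80) and ASTN2 beside TLR4 (LFC 0.74), and those not SDE were RNF175 and BRINP1. Around TLR1 and TLR6 the neighbour FAM114A1 was at an LFC of -0.48 (adjusted p = 0.0327).

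Markers of other cell types were read as well, against 32.3% of all genes higher (29.1% of those below 1 CPM). Of 10 markers of myeloid cells 7 were tested and 4 rose, and their summed level was 3.44 to 5.48 CPM with vehicle and 9.51 to 15.1 CPM with nutlin. Those that rose were CD68 (LFC 2.29), LYZ (LFC 1.14), CSF1R (LFC 0.95) and ITGAM (LFC 7.05), and CD68, LYZ and ITGAM did so without overlap. PTPRC (CD45), CD163 and SPI1 were not SDE, with LFCs of 0.80, 0.27 and 1.07. AIF1, TYROBP and FCGR3A were at 0 in all vehicle samples and had 3, 1 and 1 read pairs in all with nutlin. Of 6 tested markers of B and plasmacytoid dendritic cells 4 rose, MS4A1 (LFC 4.69), CD79A (LFC 2.63), CD79B (LFC 2.38) and IL3RA (LFC 1.29), while CLEC4C and LILRA4 were not SDE. The summed level of the list was 7.29 to 10.9 CPM with vehicle and 20.4 to 28.7 CPM with nutlin. Most of it was IL3RA, at 8.42 ± 0.958 CPM with vehicle and 20.7 ± 2.34 CPM with nutlin. Of 8 markers of fibroblasts and endothelium 2 rose and 2 fell, with sums of 13.2 to 21.1 and 36.6 to 47.0 CPM. COL1A1 made up most of that sum, at 8.91 ± 1.35 CPM with vehicle and 35.2 ± 3.5 CPM with nutlin. PECAM1 also rose (LFC 1.54), and LUM (LFC -1.71) and VWF (LFC -0.83) fell. Neuroblast markers summed to 9000 to 10300 CPM with vehicle and 8610 to 10400 CPM with nutlin, with 4 of 12 higher and 6 lower. The part of these markers in the levels of the Toll-like receptors was not tested.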

How the data were processed

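RNA-seq of 10 vehicle and 10 nutlin samples of NGP cells was re-analysed, with conditions and replicate numbers from the labels. The authors ran kallisto 0.42.4 on GRCh38 transcripts of Ensembl release 85 and deposited, for each of 198968 transcripts, estimated counts with no normalization. They also deposited effective lengths in bases. The TPM values deposited by the authors are estimated counts scaled by effective length and library size.

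GENCODE release 44 placed 191106 transcripts (96.0%) in genes by identifier, ignoring versions, and the 7862 without a match were dropped. Matched transcripts held 96.66 to 96.78% of the estimated read pairs of vehicle samples and 95.71 to 95.95% of those of nutlin samples. Whether a dropped transcript belonged to a Toll-like receptor gene was not tested. Gene counts are rounded sums of the estimated counts. Of 57536 matched genes, the 27697 mRNA and lncRNA genes whose counts totalled 1 or more under both conditions went into the quasi-likelihood F-test of edgeR (version 4.0.16, R version 4.3.3), with TMM normalization, condition as the only term, Benjamini-Hochberg adjustment and 5% FDR. LFC, SE and adjusted p come from this fit unless another is named. CPM are TMM-normalised and TPM were only described. The scripts were tested on simulated data, in which only genes with a mean above 1 CPM were changed. That test does not cover genes at the level of the receptors. DESeq2 1.42.0 and limma 3.58.1 gave alternatives. Other steps used Python 3.11.15, with matplotlib 3.10.9 for plots, pandas 2.3.3 and numpy 2.4.6.

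GENCODE 44 is later than the authors' annotation, and some lengths differ (TLR4 transcript ENST00000355622: 4844 bases in the files, 12677 in GENCODE 44). TLR9's transcript has 3870 and 3352 bases. Not all GENCODE 44 transcripts were quantified by the authors, with 1 of 8 for TLR2, 5 of 9 for TLR3 and 4 of 8 for TLR5. Shared 31-base words were counted in GENCODE 44 sequences.

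The 10 genes and the pathway and marker lists were chosen with earlier results of these data known. Named were all 10 genes, MDM2, the pathway genes LY96, CD14, UNC93B1, MYD88, TICAM1, TIRAP, NFKBIA and TNFAIP3, and per list up to 3 SDE genes with the largest absolute LFC in each direction among those with a mean of at least 1 CPM. Neighbours were named where a count of 5 or fewer rests on them. Genes outside this rule are marked in the text, apart from those of markers and background.

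Of the replicate numbers 8 occur in both conditions. Deviations of same-numbered samples correlated by -0.0203 to 0.0256, so the numbers were not taken to pair samples. p-values measure the spread between cultures of a single line.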

Additional observations from a re-analysis of the deposited data

Results flagged for a closer look

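Of 94 groups of 10 samples examined, 8 had a highest or lowest sample far from the others by Dixon's ratio test. Its chance rate of about 1 in 20 groups holds for continuous, normally distributed values. It does not hold for counts of a few read pairs, where 1 read pair among samples at 0 always gives the highest ratio. Among the receptors, TLR5 was at 0.234 CPM (4 read pairs) in vehicle replicate 9, where the next sample was at 0.0688 CPM. TLR6 was at 0.0577 CPM in vehicle replicate 8 and at 0.0644 CPM in nutlin replicate 2, each on 1 read pair with all others of the group at 0. TLR10 was at 0.564 CPM (9 read pairs) in nutlin replicate 1, with the next sample at 0.263 CPM. ENSG00000173366, which shares the large exon of TLR9, was at 1.58 CPM (24 read pairs) in nutlin replicate 11, in which TLR9 had 0, and the next sample was at 0.727 CPM.

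Among pathway genes, vehicle replicate 10 was highest for CTSL, at 23.1 CPM with the next at 19.5 CPM, and for MYD88, at 0.275 CPM (4 read pairs) with the next at 0.0812 CPM. ATF3 was lowest in vehicle replicate 5, at 0.465 CPM (7 read pairs), where the next sample was at 2.14 CPM.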

How the results depend on the processing

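With edgeR's filterByExpr, which asks for about 10 counts, 0 of the Toll-like receptor genes were left to test, so that 0 were SDE, 0 higher and 0 lower, and 47 pathway genes were SDE. With an offset for effective length 2 receptors were SDE, 2 higher and 0 lower, and TLR1 lost its call (LFC -0.95, adjusted p = 0.0574). Under DESeq2 size factors, DESeq2, limma voom, no filter and coding transcripts only, 3 were SDE in each. DESeq2 gave no adjusted p for TLR6. Over the 8 alternatives that kept each gene as a feature of its own, the adjusted p ranged from 0.000367 to 0.00256 for TLR4 and from 0.00026 to 0.0163 for TLR9. No LFC of a called gene changed sign.

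With each of the 20 libraries left out in turn, 3 to 4 receptors were SDE, 2 to 3 higher and 1 lower. The number of SDE pathway genes was 52 to 56 and of all SDE genes 15932 to 16198. TLR5 without vehicle replicate 9 and TLR8 without nutlin replicate 6 gained a call.

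The replicate number as a block could be fitted over the 16 samples whose number occurs in both conditions. It gave 3 SDE receptors, 51 pathway genes and 14276 genes in all, and the same samples without the block 3, 53 and 14992. The numbers were not shown to pair samples, since 0 of 8 correlations were over 0.1 and 0 vehicle samples correlated best with their own number.

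Depth limits all values of the receptors, since the median of a group was at most 11.5 read pairs, and a difference that missed the threshold cannot be called absent.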

Other observations

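Among genes of the output list outside the test, the enzyme PTGS2 (COX-2) had no read pair in any vehicle sample. It had 16 with nutlin, in 8 samples, at least 5.2-fold higher against a floor of 3 counts over the vehicle group. With no filter on low counts its adjusted p was 0.000361 and that of TNF 9.83e-07 (edgeR). IL12A had 0 and 6 read pairs and CCL4 0 and 5. These genes were named after their values were seen.

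Among myeloid and B cell markers, the differences were uneven. ITGAM (CD11b) had 0 to 1 read pairs per vehicle sample and 15 to 69 per nutlin sample (LFC 7.05, SE 0.43), and MS4A1 (CD20) had 1 and 58 read pairs in all, while SPI1, the transcription factor of the myeloid lineage, had 4 and 10 and was not SDE.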
